A study of Mus musculus with 6 samples.

Results

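Clustered protocadherins are neuronal cell adhesion molecules encoded by 3 gene clusters in a row on chromosome 18, named alpha, beta and gamma. They were taken here as every gene of the deposited table whose symbol is *Pcdha*, *Pcdhb*, *Pcdhga*, *Pcdhgb*, *Pcdhgc* or *Pcdhac* followed by a number, which gave 58 of 31169 genes: 14 in the alpha cluster, 22 in the beta cluster and 22 in the gamma cluster. Whole-retina RNA came from C57BL/6 mice that received, at 1 month of age, an intracameral injection of saline or of microbeads, a model in which beads in the anterior chamber raise intraocular pressure (IOP). Retinas were harvested 4 weeks later, when the mice were 2 months old, and the table holds 3 saline libraries and 3 microbead libraries from mice with no genetic alteration named in the labels. The comparison asks how transcription in retina differs after weeks of elevated IOP. No source used here says that each library is a separate animal, so p-values measure the spread between these libraries.

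In the alpha and gamma clusters each variable exon carries its own promoter and encodes the extracellular cadherin repeats, the membrane span and part of the cytoplasmic tail. It is spliced to constant exons that all members of the cluster share, whereas each beta gene is a single exon with no constant part. A neuron transcribes a small and largely random choice of the variable members, and the C-type members at the 3′ end of the alpha and gamma clusters are transcribed more uniformly. The proteins bind identical partners on opposing membranes, and in retina the gamma cluster is known for the self-avoidance of starburst amacrine dendrites and for the survival of interneurons and retinal ganglion cells (RGCs).

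On the mouse assembly GRCm38, the alpha cluster spans positions 36930184 to 37187661 of chromosome 18, the beta cluster 37264938 to 37524479 and the gamma cluster 37661793 to 37841873, all on the plus strand in the GENCODE vM21 gene models. The longest transcript of an alpha member shared a median of 2860 bases with other genes on its strand and held a median of 2476.5 bases of its own. For gamma members these medians were 2119 shared and 2583.5 own bases, and for beta members 0 and 3714. How reads in the shared exons were counted is not given in the sources used here, but within saline 2, for example, the counts of alpha members ran from 10 to 799, so those reads were not credited to every member. Stretches of 100 bases were taken from the members' own bases only, without the shared exons. Of these, at most 11.7% for an alpha member, 2.24% for a beta member and 9.80% for a gamma member also occurred in a transcript of another locus. At 31 bases the own bases of alpha members were the most alike, with a median of 20.2% shared stretches and up to 38.9% for *Pcdha7*.

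The libraries held 13574949 to 46481382 counts, with all 3 microbead libraries below all 3 saline libraries. The names of the saline libraries carry one series label and those of the microbead libraries another, so library series and injection cannot be told apart. Rod markers summed to 50674 to 76239 CPM (counts per 1000000 of the scaled library size), the most abundant of the marker lists in every library. The summed level of 8 RGC markers was 327 CPM in saline 1 against 959 and 1236 CPM in saline 2 and 3, and 823 to 1104 CPM in the microbead libraries. The sum of 6 lens markers was 19.6, 1.41 and 244 CPM in saline 1, 2 and 3 and 0.867 to 1.62 CPM in the microbead libraries. The sum of 5 pigment epithelium markers was 6.93, 32.5 and 148 CPM in saline 1, 2 and 3 and 69.8 to 83.2 CPM in the microbead libraries. In whole retina, fewer cells of a type and less RNA per cell cannot be told apart.

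The mean summed level of each of the 3 clusters was lower in microbead than in saline retina, with overlap between the groups, and the log2 ratio was furthest from 0 in the alpha cluster. The alpha members together reached 22.4, 44.1 and 59.0 CPM in the saline libraries and 9.52, 24.1 and 18.8 CPM in the microbead libraries. Saline 1 lay just below microbead 2, so the alpha sums overlapped, and the mean was 41.8 ± 18.4 CPM (SD, n = 3) in saline and 17.5 ± 7.39 CPM (SD, n = 3) in microbead retina, a log2 ratio of -1.26. The beta members, which made up the largest summed level, reached 206, 238 and 297 CPM against 151, 215 and 168 CPM, with means of 247 ± 46.6 and 178 ± 33.1 CPM and a log2 ratio of -0.47. The gamma members reached 170, 202 and 237 CPM against 73.7, 178 and 155 CPM, with means of 203 ± 33.4 and 136 ± 54.8 CPM and a log2 ratio of -0.58. In the beta and gamma clusters it was again saline 1 that fell inside the microbead range. Since a sum over members is a score over a chosen list, no p-value is given for it.

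**Figure D1:**
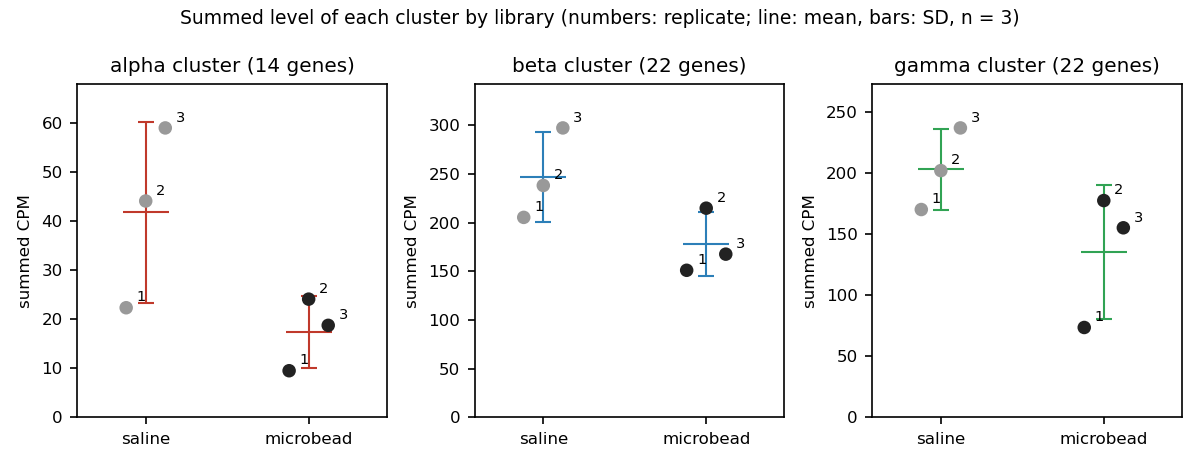
Summed CPM of the alpha, beta and gamma clusters (vertical axes, linear and starting at 0) in each saline (grey) and microbead (black) library, with the mean as a line and the SD of 3 libraries as bars. Saline 1 is the lowest saline library in each cluster and microbead 1 the lowest microbead library.

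The order of the libraries was shared by most members. Saline 1 was the lowest saline library for 44 of the 55 members that could be tested, including all 12 tested alpha members, and saline 3 was the highest for 45. Microbead 1 was the lowest microbead library for 43 of the 55, including 20 of 21 tested gamma members. Saline 1 is also the library with the lowest RGC marker sum and the lowest starburst amacrine marker sum, 23.6 CPM, where saline 2 and 3 held 49.2 and 63.6 CPM. Among the saline libraries, saline 1 was also lowest for the amacrine, horizontal cell, bipolar, Müller glia and pigment epithelium sums. The Müller glia sum, for example, was 3666 CPM in saline 1 and 5138 and 7674 CPM in saline 2 and 3. Rod, lens and optic nerve marker sums were lowest in saline 2. In the microbead libraries, however, the RGC sum was highest in microbead 1 (1104 CPM) and the starburst sum was 36.1 to 42.9 CPM. All 8 RGC and 3 starburst markers were detected in every library, and the part of these cells in the protocadherin levels was not tested. Without saline 1, the log2 ratios of the summed levels were -1.56 for alpha, -0.59 for beta and -0.70 for gamma. Without saline 3, the library with the most lens RNA, they were -0.93, -0.32 and -0.46. Without microbead 1, the gamma ratio was -0.29.

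Of the 58 members, 55 passed the filter on low counts and were tested among 17707 genes with edgeR's quasi-likelihood test: 12 alpha, 22 beta and 21 gamma members. With an adjusted p-value under 0.05, 5 members (9.09%) fell and 0 rose, beside 6.31% of all tested genes that fell, so the share of calls among the members was close to that of the whole table. The 5 were 3 alpha members, *Pcdha7*, *Pcdha11* and *Pcdha12*, and 2 gamma members, *Pcdhga6* and *Pcdhgc4*. No beta member was called, although 7 of the 22 had an unadjusted p-value under 0.05. In all, 20 members (36.4%) had an unadjusted p-value under 0.05 and a lower level after microbead injection, beside 16.2% of all tested genes, and 0 had one and a higher level. All 3 microbead libraries lay below all 3 saline libraries for 18 members (32.7%), beside 18.9% of all tested genes, and no member showed the opposite. These 18 were 6 alpha, 8 beta and 4 gamma members. With 3 libraries against 3, an exact permutation test of a single gene could not go below p = 0.1, so the calls depend on the spread that edgeR shares between genes.

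The direction was more uniform than the calls. The log2 fold change was below 0 for 53 of 55 members (96.4%), beside 52.1% of all tested genes, whose median was -0.03. The median over the tested members was -1.59 in the alpha cluster (range -2.29 to -0.12), -0.45 in the beta cluster (range -1.33 to 0.21) and -0.49 in the gamma cluster (range -1.49 to 0.33). The exceptions, named after their values were seen, were *Pcdhb6* and *Pcdhga4*. *Pcdhb6* measured 5.23, 6.82 and 10.5 CPM in saline and 11.1, 8.02 and 7.02 CPM in microbead retina, with a log2 fold change of 0.21. *Pcdhga4* measured 9.96, 8.23 and 8.36 CPM against 8.59, 12.6 and 12.3 CPM, with a log2 fold change of 0.33. In both genes the groups overlapped. The members share the same 6 libraries and neighbouring promoters, so they are not independent of each other, and 45 of 55 members were below 0 without microbead 1 and 46 of 53 without saline 3. Without microbead 1 the gamma median was -0.19.

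**Figure D2:**
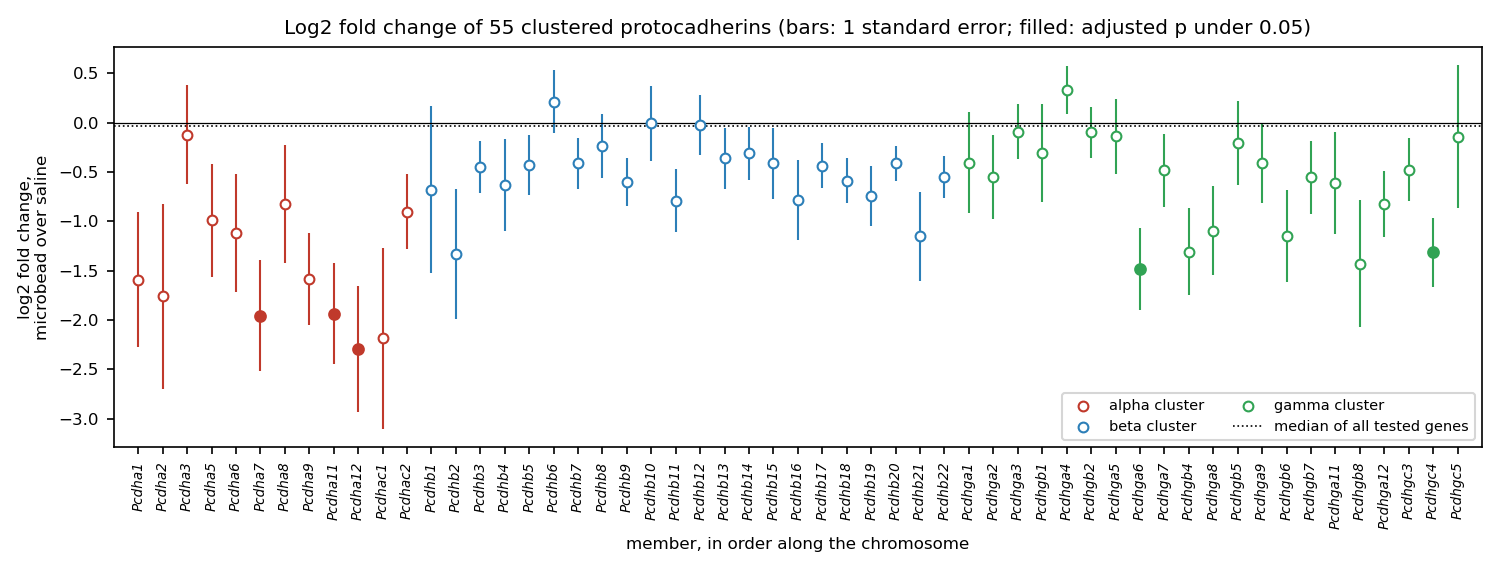
Log2 fold change of microbead over saline retina (vertical axis) for the 55 tested members in their order along the chromosome, with bars of 1 standard error and filled points for the 5 members with an adjusted p-value under 0.05. All but *Pcdhb6* and *Pcdhga4* lie below 0, and the alpha members reach furthest down, to -2.29 for *Pcdha12*.

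Among the variable alpha members, which give each neuron part of its surface identity, 10 of 12 were abundant enough to be tested. Of these, 3 fell, beside 6.31% of all tested genes. *Pcdha7* (ENSMUSG00000104318.1, chromosome 18, 36973802 to 37187657) measured 1.54, 3.57 and 4.14 CPM in saline and 0.515, 1.37 and 0.520 CPM in microbead retina. The highest microbead library was just below the lowest saline library, and it fell by 1.96 on the log2 scale (standard error 0.56, adjusted p = 0.0493 by edgeR). *Pcdha11* (ENSMUSG00000007440.10, 37005203 to 37187657) measured 1.46, 2.12 and 4.28 CPM against 0.669, 0.722 and 0.650 CPM. Its microbead libraries were nearly equal and lay below every saline library, with a log2 fold change of -1.94 (standard error 0.51, adjusted p = 0.0390 by edgeR). *Pcdha12* (ENSMUSG00000103310.1, 37020149 to 37187657) measured 2.63, 3.07 and 5.34 CPM against 0.154, 1.30 and 0.845 CPM, again without overlap. Its log2 fold change of -2.29 (standard error 0.64, adjusted p = 0.0464 by edgeR) was the largest of all members. *Pcdha9*, the variable alpha member with the highest level, measured 2.02, 4.15 and 5.45 CPM against 0.875, 1.59 and 1.43 CPM. The groups did not overlap, but at a log2 fold change of -1.58 (standard error 0.47) the adjusted p-value of 0.0535 from edgeR missed the threshold.

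The remaining variable alpha members had log2 fold changes from -1.76 for *Pcdha2* to -0.12 for *Pcdha3*, and none of them passed. *Pcdha2* had 0 counts in microbead 1, where 3 counts would be 0.154 CPM, and 1.59 and 1.10 CPM in microbead 2 and 3. *Pcdha3*, with 0.717, 1.70 and 2.11 CPM in saline and 1.03, 1.59 and 1.56 CPM in microbead retina, was the tested alpha member whose level moved least. Summed over the 12 variable members, the level was 12.2, 24.1 and 34.2 CPM in saline and 4.79, 11.8 and 9.16 CPM in microbead retina, a log2 ratio of -1.46 in which every microbead library was below every saline library. Alpha members were the least abundant of the 3 clusters, with a median of 1.78 CPM over the 6 libraries for tested members against 7.93 CPM for beta and 6.37 CPM for gamma members, and the lowest counts carry the widest counting error.

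The 5 C-type members had log2 fold changes from -2.19 to -0.14, and 1 of them fell, beside 6.31% of all tested genes. *Pcdhac1* measured 1.17, 3.46 and 4.45 CPM in saline and 0, 0.939 and 1.10 CPM in microbead retina, with 0 counts in microbead 1. The groups did not overlap, and the log2 fold change was -2.19 with a standard error of 0.92 (adjusted p = 0.137 by edgeR). *Pcdhac2*, known for the spacing of serotonergic axons, was the most abundant alpha member at 9.004, 16.6 and 20.3 CPM against 4.73, 11.4 and 8.51 CPM. Saline 1 fell between the microbead libraries, and the log2 fold change of -0.90 (standard error 0.38, adjusted p = 0.137 by edgeR) did not pass. *Pcdhac2* made up 40.3, 37.5 and 34.5% of the alpha counts in saline and 49.7, 47.3 and 45.3% in microbead retina, without overlap.

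At the end of the gamma cluster, *Pcdhgc4* (ENSMUSG00000023036.14, 37815079 to 37841873), the gamma member needed for the survival of neurons, measured 17.6, 30.01 and 39.9 CPM in saline and 7.41, 16.0 and 11.9 CPM in microbead retina. The groups did not overlap, and with a log2 fold change of -1.31 (standard error 0.35, adjusted p = 0.0400 by edgeR) it was the most abundant of the 5 members that fell. Its share of the gamma counts was 10.4, 14.8 and 16.8% in saline and 10.1, 9.02 and 7.65% in microbead retina, so that saline 1 was nearly level with microbead 1. *Pcdhgc3*, known as an inhibitor of canonical Wnt signalling through Axin1, lies next to it and measured 20.4, 27.0 and 35.1 CPM against 10.9, 24.6 and 23.9 CPM. The groups overlapped, and it differed by a log2 fold change of -0.48 (standard error 0.32, adjusted p = 0.341 by edgeR). *Pcdhgc5* measured 5.07, 6.24 and 4.56 CPM against 0.412, 8.74 and 5.39 CPM, so the microbead group held both the lowest and the highest value. It had a log2 fold change of -0.14 (standard error 0.72, adjusted p = 0.916 by edgeR), which turned to 0.41 without microbead 1 (adjusted p = 0.428). Neighbouring C-type promoters thus gave values from -1.31 to -0.14 in the same libraries, but the difference between members was not tested.

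**Figure D3:**
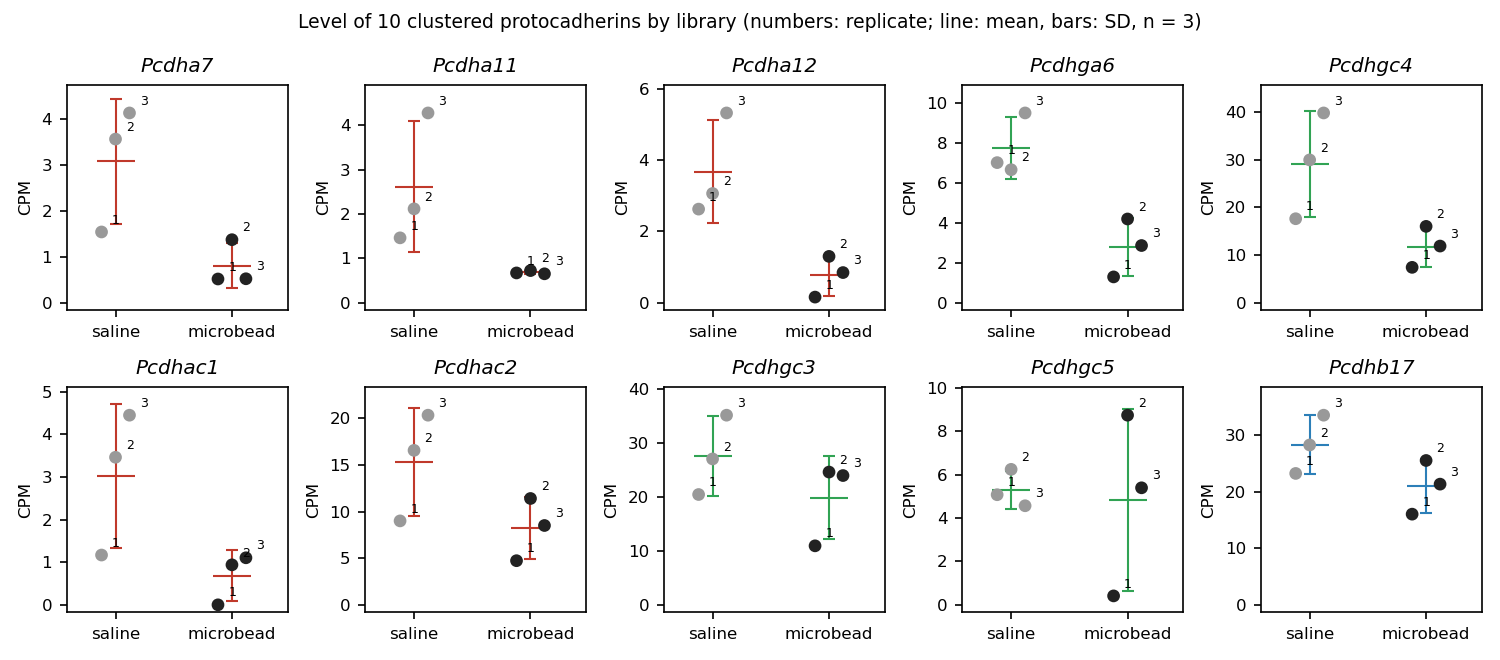
CPM (vertical axes, linear and starting at 0) of the 5 members that fell, the other 4 C-type members and *Pcdhb17*, the most abundant beta member, in each saline (grey) and microbead (black) library, with the mean as a line and the SD of 3 libraries as bars. In the top row, the members that fell, the groups do not overlap, while *Pcdhgc5* spans from 0.412 to 8.74 CPM within the microbead group.

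Among the 18 tested variable gamma members, 1 fell, beside 6.31% of all tested genes. This was *Pcdhga6* (ENSMUSG00000103793.1, 37707039 to 37841873). It measured 7.01, 6.66 and 9.50 CPM in saline and 1.29, 4.19 and 2.86 CPM in microbead retina, without overlap, and it fell by 1.49 on the log2 scale (standard error 0.42, adjusted p = 0.0462 by edgeR). *Pcdhgb6* was the most abundant variable gamma member by its mean over the 6 libraries, at 10.5, 14.2 and 18.9 CPM against 2.21, 8.95 and 8.64 CPM. Its groups did not overlap, and it had a log2 fold change of -1.15 (standard error 0.46, adjusted p = 0.123 by edgeR). *Pcdhgb4*, named after its values were seen, measured 5.68, 5.52 and 7.22 CPM against 0.978, 3.54 and 2.99 CPM, also without overlap (log2 fold change -1.31, adjusted p = 0.0794 by edgeR). By contrast *Pcdhga3*, *Pcdhgb2* and *Pcdhga5*, also named after their values were seen, had log2 fold changes of -0.09, -0.10 and -0.14. Summed over the members of each subfamily, the log2 ratio was -0.43 for the 12 gamma A members and -0.67 for the 7 gamma B members. The gamma B sums were 48.6, 50.0 and 54.9 CPM in saline and 15.4, 40.2 and 40.5 CPM in microbead retina and did not overlap, while the gamma A sums, at 78.7, 89.1 and 103 CPM against 39.5, 88.2 and 73.7 CPM, did.

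A pair of neighbours at the end of the variable gamma exons ran against the usual order of the saline libraries. *Pcdhgb8*, annotated as a polymorphic pseudogene, measured 7.49, 5.18 and 1.28 CPM in saline and 0.721, 2.24 and 2.27 CPM in microbead retina, with a log2 fold change of -1.43 (standard error 0.65, adjusted p = 0.164 by edgeR). *Pcdhga12* measured 18.3, 13.9 and 7.96 CPM against 5.76, 9.53 and 7.41 CPM, with a log2 fold change of -0.83 (standard error 0.33, adjusted p = 0.125 by edgeR). In both, saline 1 was the highest and saline 3 the lowest saline library. Saline 3 was the lowest saline library for 5 members in all, the others being *Pcdhb22*, *Pcdhgb2* and *Pcdhgc5*. *Gm26672*, which is annotated on the opposite strand from 37746559 to 37768242 and has exon bases in common with *Pcdhga12* but none with *Pcdhgb8*, had the same order in saline, at 4.20, 2.36 and 0.599 CPM, and measured 0.463, 2.38 and 0.715 CPM in microbead retina. The strand setting of the counting is not given in the sources used here, so reads of *Pcdhga12* and *Gm26672* cannot be told apart where their exons overlap. On its own strand *Pcdhga12* has 2961 bases that no other gene covers, and 2539 when both strands are considered, whereas *Pcdhgb8* has 2499 either way.

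The beta cluster held the largest summed level and, with all 6 libraries, the log2 ratio nearest to 0. Without microbead 1 the order turned, with -0.37 for beta and -0.29 for gamma. *Pcdhb17*, *Pcdhb20* and *Pcdhb22* were its most abundant members. *Pcdhb17* (37484795 to 37489454) measured 23.3, 28.3 and 33.6 CPM in saline and 16.1, 25.6 and 21.4 CPM in microbead retina. The groups overlapped through microbead 2, at a log2 fold change of -0.44 (standard error 0.23, adjusted p = 0.223 by edgeR). *Pcdhb20* measured 27.6, 24.2 and 25.8 CPM against 17.3, 21.7 and 19.4 CPM, and its groups did not overlap (log2 fold change -0.41, standard error 0.18, adjusted p = 0.151 by edgeR). *Pcdhb22* measured 26.1, 24.8 and 24.4 CPM against 12.5, 18.9 and 20.1 CPM, also without overlap (log2 fold change -0.55, standard error 0.22, adjusted p = 0.117 by edgeR). The largest fold changes of the cluster were those of 2 members of low level. *Pcdhb2* measured 1.41, 3.36 and 7.28 CPM against 0.721, 2.82 and 1.30 CPM (log2 fold change -1.33, adjusted p = 0.199 by edgeR), and *Pcdhb21* measured 4.36, 6.93 and 6.05 CPM against 2.21, 4.405 and 1.23 CPM (log2 fold change -1.15, adjusted p = 0.117 by edgeR). In both, one microbead library reached into the saline range.

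The balance between the clusters was compared within each library, where depth cancels. The ratio of the alpha to the beta sum was 0.109, 0.185 and 0.198 in saline and 0.0630, 0.112 and 0.112 in microbead retina. The ratio of the gamma to the beta sum was 0.829, 0.849 and 0.798 against 0.488, 0.827 and 0.926, so gamma kept pace with beta in microbead 2 and 3 but not in microbead 1. The ratio of the alpha to the gamma sum was 0.131, 0.218 and 0.249 in saline and 0.129, 0.136 and 0.121 in microbead retina. In the first and the third ratio saline 1 lay inside the microbead range, and saline 2 and 3 lay above it.

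**Figure D4:**
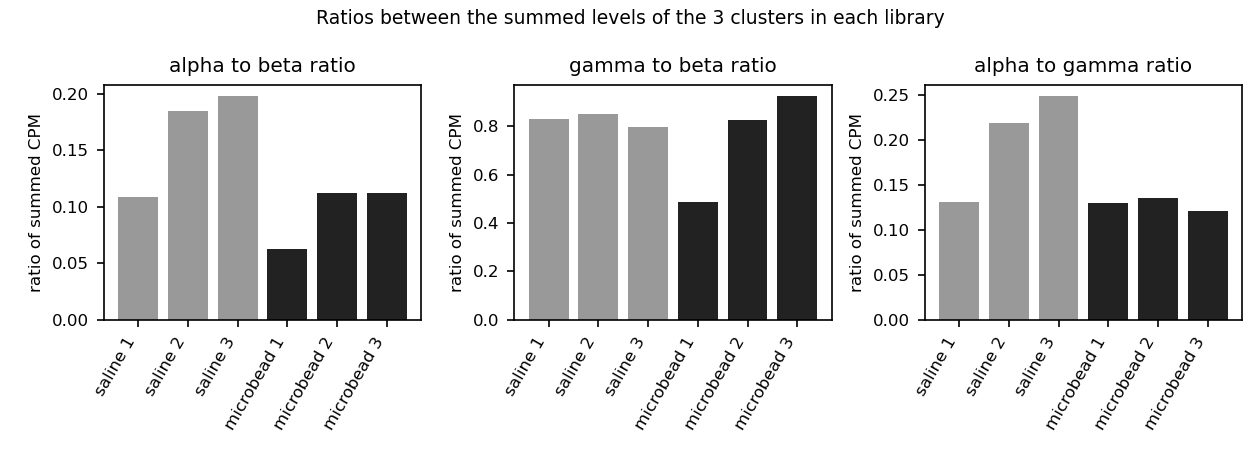
Ratio of summed CPM between clusters (vertical axes, linear and starting at 0) in each saline (grey bars) and microbead (black bars) library. The alpha to gamma ratio of saline 1 (0.131) sits with the microbead libraries (0.121 to 0.136), while saline 2 and 3 reach 0.218 and 0.249.

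Across the 58 members, mean levels in saline and microbead retina had a Spearman correlation of 0.95, a description over members that share the same libraries. Levels were also taken per kilobase of a gene's longest transcript that no other gene covers on either strand. On this scale *Pcdhgc3* and *Pcdhgc4* were the highest in saline, at 26.05 and 10.04 CPM per kilobase. *Pcdhb9* followed at 7.78 and *Pcdhb20* at 7.27. The level of *Pcdhgc3* depends on the strand, since an opposite-strand gene covers part of its exon, and was 10.7 CPM per kilobase when only its own strand was considered. In microbead retina the same scale gave 18.8 for *Pcdhgc3*, 4.05 for *Pcdhgc4*, 5.13 for *Pcdhb9* and 5.46 CPM per kilobase for *Pcdhb20*. *Pcdhgc4*, second in saline, thus came to lie below both beta members, and *Pcdhga4*, named after its values were seen, measured 5.64 in saline and 7.10 CPM per kilobase in microbead retina, second there to *Pcdhgc3*. The counts cover all exons of a gene, but the kilobases cover its longest transcript only. Over all exons *Pcdhgc3* has 1821 such bases, beside 1055 in the longest transcript, and 3380 beside 2568 on its own strand. *Pcdhgc4* has 3477 beside 2905, so the levels and their order depend on this choice. These levels were ordered by group means, and the order was not tested.

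The 3 members that did not pass the filter had almost no counts. *Pcdhga10* had 6, 0 and 2 counts in saline and 0, 0 and 4 in microbead retina, although its neighbours were well above the filter. Its variable exon lies within an exon of *Gm26672*, which leaves 0 bases of its own when both strands are considered and 2613 on its own strand. *Pcdha4*, with 2, 10 and 1 counts against 0, 5 and 0, has 3 bases of its own in its longest transcript when both strands are considered. A second entry named *Pcdha11* (ENSMUSG00000102206.5), with 2, 10 and 4 counts against 0, 1 and 0, has 54 such bases, and RefSeq (GRCm38.p6) places *Pcdha10* at the locus of the entry that was tested as *Pcdha11*. For these 3 genes the count table cannot separate a low level from reads not assigned to the gene.

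The place of the counted exon within the transcript also differed between the clusters. The median distance of a gene's own bases from the 3′ end of its longest transcript was 4033 to 4374 bases for alpha, 2904 to 3599 for gamma and 1294 to 4347 for beta members. Across the 55 tested members, the log2 fold change had a Spearman correlation of -0.45 with this distance and 0.38 with the mean CPM. Within the clusters the correlation with distance was -0.21 for alpha, -0.24 for beta and -0.28 for gamma members. These are descriptions over genes that share libraries and a locus, and since alpha members are both the furthest from the 3′ end and the least abundant, cluster, distance and level cannot be told apart. The paper describes polyA-enriched libraries, and the part of RNA integrity in these fold changes was not tested. *Pcdhb14*, with the largest median distance of the beta members (4347 bases), had a log2 fold change of -0.31, and *Pcdhb19*, the next at 3569 bases, -0.74. *Pcdhb14* is a single exon of 8695 bases with 0 shared, so unlike those of alpha members its own bases run to the 3′ end.

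**Figure D5:**
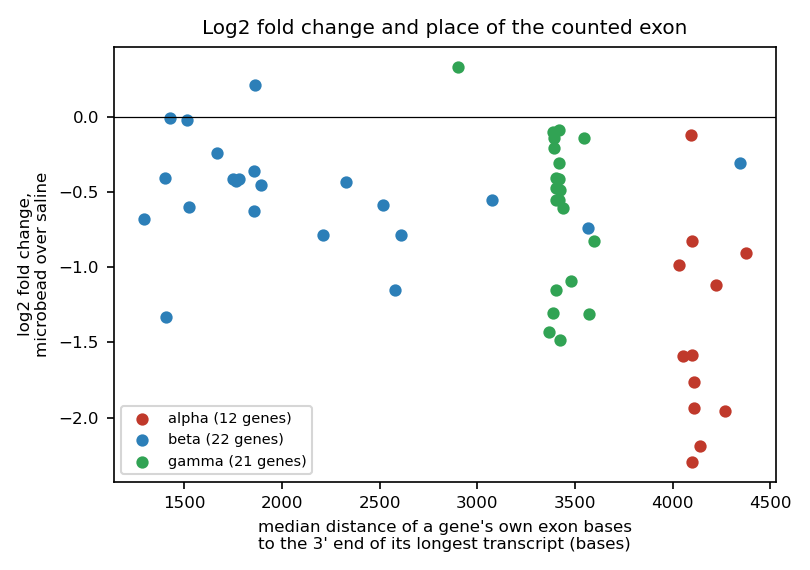
Log2 fold change of microbead over saline retina (vertical axis) against the median distance in bases of a gene's own exon bases from the 3′ end of its longest transcript (horizontal axis), for 12 alpha, 22 beta and 21 gamma members. Alpha members lie at 4033 bases or more and reach -2.29, while the beta members other than *Pcdhb2* and *Pcdhb21* lie at -0.79 or above.

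Among transcripts from the same stretch of chromosome, named after their values were seen, the opposite direction occurred. Of 7 counted opposite-strand genes in the clusters, 4 could be tested. Of these, 1 rose and 0 fell, beside 6.46 and 6.31% of all tested genes. The gene that rose was *Gm10544*. Not called were *Gm37446* (log2 fold change 1.00), *BC037039* (0.25) and *Gm26672* (-1.03). *Gm10544* is annotated on the opposite strand from 37159854 to 37178522, within the intron between the last 2 constant exons of the alpha cluster (37159265 to 37159353 and 37184946 to 37187657). It measured 9.62, 8.71 and 3.71 CPM in saline and 67.6, 43.9 and 46.5 CPM in microbead retina. Every microbead library was above every saline library, with a log2 fold change of 2.84 (standard error 0.35, adjusted p = 0.00598 by edgeR). Exons of *Gm10544* also have bases in common with exons of the second entry named *Pcdha11*. The paper describes stranded libraries, but the strand setting of the counting is not given in the sources used here. Reads of *Gm10544* and of alpha members therefore cannot be told apart in this intron or where exons overlap. Of 6 genes next to or between the clusters, *Zmat2* (log2 fold change 0.78, adjusted p = 0.0253 by edgeR) and the histone deacetylase gene *Hdac3* (log2 fold change 0.87, adjusted p = 0.0220 by edgeR) rose, beside 6.46% of all tested genes that rose. The other 4 did not pass, and 3 of the 6 had a log2 fold change below 0.

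Protocadherins outside the clusters were measured in the same way. Of 11 tested non-clustered protocadherins, 2 fell and 0 rose, 10 had a log2 fold change below 0, and the median was -0.64, beside 6.31% of all tested genes that fell and 52.1% below 0. *Pcdh19* measured 20.7, 37.2 and 48.3 CPM in saline and 12.3, 17.9 and 14.1 CPM in microbead retina (log2 fold change -1.26, adjusted p = 0.0297 by edgeR). *Pcdh17* measured 30.8, 47.4 and 51.0 CPM against 18.1, 29.4 and 18.3 CPM (log2 fold change -0.98, adjusted p = 0.0411 by edgeR). In both genes the groups did not overlap, and saline 1 was again the lowest saline library.

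Genes for the choice of clustered protocadherin promoters, such as the DNA-binding factor *Ctcf*, cohesin subunits and DNA methyltransferases, showed no call: of 16 tested, 0 rose and 0 fell by edgeR, with a median log2 fold change of -0.21. The largest change of this list was that of the cohesin loader *Nipbl*, at 175, 170 and 172 CPM in saline and 97.4, 155 and 106 CPM in microbead retina (log2 fold change -0.53, adjusted p = 0.109 by edgeR). Among 20 genes for signalling and processing of the proteins, 3 fell and 0 rose, beside 6.31 and 6.46% of all tested genes. These were *Abi2*, a subunit of the WAVE complex that binds protocadherin tails (113 to 60.9 CPM on average, log2 fold change -0.89, adjusted p = 0.0164 by edgeR), *Marcks*, an actin-binding kinase substrate (211 to 114 CPM, -0.88, adjusted p = 0.0253), and *Ctnnb1*, which encodes β-catenin (329 to 188 CPM, -0.80, adjusted p = 0.0340). In each of these 3 the groups did not overlap. Of 11 other recognition molecules of retinal neurites, 1 fell and 0 rose, beside 6.31 and 6.46% of all tested genes. Their median log2 fold change was -0.24, and 7 of the 11 were below 0, beside 52.1% of all tested genes. The gene that fell was *Megf10*, which spaces starburst and horizontal cells. Its mean went from 45.3 to 22.2 CPM (log2 fold change -1.03, adjusted p = 0.0195 by edgeR), and the other 10 did not pass.

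Cell type marker lists were set beside the members. No RGC, amacrine, starburst amacrine, bipolar or pigment epithelium marker was called by edgeR. Of 3 horizontal cell markers, *Onecut2* fell (log2 fold change -1.36, adjusted p = 0.0335 by edgeR), and their sum was 22.05 to 28.7 CPM in saline and 8.75 to 13.8 CPM in microbead retina, without overlap and with a log2 ratio of -1.18, further from 0 than those of the beta and gamma clusters. The sum of 5 Müller glia markers had a log2 ratio of -0.42, with overlap between the groups. One gene fell in each of the rod (*Nrl*), Müller glia (*Dkk3*) and optic nerve (*Mbp*) lists. Of 6 lens markers only 2 could be tested and neither was called. The part of horizontal cells or of any other cell type in the levels of the clustered protocadherins was not tested.

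The 5 calls depended on single libraries. Without saline 1, 7 members were called, adding *Pcdha9* and *Pcdhac2* to the 5. Without saline 3, the 2 members called were *Pcdhgb8* and *Pcdhga12*. Without saline 2, microbead 1, microbead 2 or microbead 3, edgeR called 0 members, while 10, 9, 23 and 10 members had an unadjusted p-value under 0.05. Calls over all tested genes also dropped in these fits, to 293, 748, 768 and 46 genes, from 2261 with all 6 libraries. The loss of calls was thus not particular to the members. With all 6 libraries, DESeq2 called 7 members and limma-voom 2, among 3582 and 2210 genes called in all. *Pcdhgc4* was past the threshold under 10 of 16 alternatives, more than any other member named here, with adjusted p-values from 0.000104 to 0.143. *Pcdha11* was past it under 9 of 16, *Pcdhga6* under 8 of 16, *Pcdha12* under 8 of 15 and *Pcdha7* under 4 of 15, with highest adjusted p-values of 0.138, 0.149, 0.150 and 0.175. Each of the 5 had a log2 fold change below 0 under every alternative, at most -1.02.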

How the data were processed

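The authors aligned reads of retinal RNA with STAR 2.5.3a to GRCm38.p5 and GENCODE vM12, counted with featureCounts 1.15.2 and deposited raw counts per gene and library. Versions are from the submitters' processing notes. The paper describes polyA-enriched libraries made with stranded kits. The strand and multi-mapping settings of the counting are not given in the sources used here. The same deposited table holds the authors' DESeq2 1.14 comparison (mean signal, log2 fold change, linear fold or ratio, p-value, adjusted p-value and a mark of calls), which was not used.

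Libraries were grouped by the injection in the sample records. Low counts were removed by filterByExpr (10 counts, total of 15), libraries were scaled by TMM, and edgeR 4.0.16 (R 4.3.3) tested microbead against saline by quasi-likelihood, two-sided, on the whole table with Benjamini-Hochberg adjustment (threshold 0.05). CPM are per 1000000 of the TMM-scaled library size. The standard error is the log2 fold change divided by the root of the F statistic. On this scale 3 counts, taken as the floor, are 0.0622 to 0.217 CPM, which covers counting error only. The chi-square per degree of freedom between libraries of one group was 14.6 or more, so none was counted as a duplicate of another. Steps were tested on simulated counts. Gene models are from GENCODE vM21 (GRCm38), and bases covered by no other gene were counted as a gene's own.

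The members and gene lists were chosen with earlier results of these data known. Named are members past the threshold, the 3 most abundant and the 2 with the largest absolute log2 fold change in each cluster, the C-type members, and of each pathway list the genes past the threshold or else the one with the largest change. Other names were chosen after their values were seen. Tried as alternatives were DESeq2 1.42.0, limma-voom (limma 3.58.1), scaling by RLE, by the upper quartile or by totals that leave out the 100 most abundant genes, a filter of 10 counts in each library or none, the replicate number as a block, thinning to the smallest total, an adjusted p-value under 0.01, a fold change over 2, each library left out in turn, and, chosen after seeing the data, an offset for GC content and length.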

Additional observations from a re-analysis of the deposited data

How the results depend on the processing

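The 5 members called became 3 with upper-quartile scaling, 2 with library sizes without the 100 most abundant genes, 14 of 58 without the filter, 2 with limma-voom and 0 at an adjusted p-value under 0.01. Leaving out 1 library gave 0 to 7 members, beside 46 to 2621 of all tested genes, with 0 members without saline 2 and without each microbead library in turn. RLE scaling gave 4, at least 10 counts in every library 4 of 46, thinning 4 of 52, DESeq2 7, a fold change over 2 gave 5, and the offset for GC content and length, chosen after seeing the data, 6. The causes were not tested. No alternative called a member higher. With the replicate number as a block, 1 member (*Pcdhgc4*) was called. Calls over all tested genes moved as well, from 2261 to 3720 without the filter, 3582 with DESeq2 and 905 with the block. Same-numbered libraries deviated from their group means with correlations of -0.0191, 0.188 and -0.00349. Differently numbered libraries were not compared, so these values cannot decide whether the numbers pair the libraries.

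The log2 ratios of the cluster sums stayed below 0 under the alternatives, from -1.56 to -0.93 for alpha, -0.62 to -0.32 for beta and -0.81 to -0.29 for gamma, with the values nearest to 0 without saline 3 (alpha and beta) and without microbead 1 (gamma). They were not computed for limma-voom, the block or the offset. The alpha median was -0.98 with at least 10 counts in every library, where only 5 alpha members were tested, and -1.64 over all 14 without the filter. The gamma median was -0.19 without microbead 1, -0.30 without saline 3 and -0.81 without microbead 2. With 1 library left out, the log2 fold change of *Pcdhgc5* ranged from -0.86 (without microbead 2) to 0.41 (without microbead 1), and it was -1.13 with limma-voom. With the offset the gamma median (-0.49) was nearer to 0 than the beta median (-0.55). With 3 libraries a group and alpha members near 2 CPM, differences between single members were not resolved.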

Other observations

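The sum of the olfactory receptor genes, a large family that was listed as one that retina is not known to use, lay the other way from the clustered protocadherins. Their sum over 206 genes of the table was 11.0, 9.98 and 5.96 CPM in saline and 12.04, 17.3 and 15.5 CPM in microbead retina, without overlap. Taken singly, 18.8% of all tested genes lay higher without overlap. The sum rests on 414, 481 and 209 counts in saline and 234, 239 and 238 counts in microbead retina, so most of these genes were near the floor. Only 9 of them passed the filter, none was called by edgeR, and the list was drawn up with earlier results of these data known.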
